A study of Mus musculus with 4 samples.

Results

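The cells described here are tuft cells of the mouse small-intestinal crypt, 146 of the 12285 cells kept over 4 single-cell RNA libraries, of which 60 came from allogeneic and 86 from syngeneic marrow recipients. The cells were chosen by measured counts, and a tuft cell was a barcode with at least 4 UMIs (unique molecular identifiers, the barcodes that mark single captured transcripts) summed over Dclk1, Trpm5, Avil, Rgs13, Sh2d6, Il25 and Gfi1b, and with no UMI of the T cell genes Cd3e, Cd3d and Cd3g. Kept barcodes had at least 500 genes, at least 1000 UMIs and at most 20% of UMIs in mitochondrial genes. In the allogeneic group, C57BL/6 mice labelled as having graft-versus-host disease had received a BALB/c bone marrow transplant (BMT), and in the syngeneic group, labelled as control, C57BL/6 mice had received C57BL/6 marrow. All recipients, syngeneic ones included, were females of 8 to 12 weeks given lethal irradiation, and all crypts were taken 7 days after BMT, so no unirradiated tissue is compared here. Each group has 2 libraries, called allogeneic 1 and 2 and syngeneic 1 and 2, and each library pools 3 to 4 mice that cannot be told apart in the data. The sample titles carry the letters KO, which the labels do not explain.

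Tuft cells are sparse epithelial cells with a stiff brush of microvilli. They sense metabolites of the gut lumen with a taste-like cascade, in which G proteins activate phospholipase C, calcium leaves internal stores and the cation channel Trpm5 opens, and they then release the cytokine encoded by Il25, leukotrienes, prostaglandins and acetylcholine. In the small intestine they are best known for starting type 2 immunity to worms and protists. In graft-versus-host disease donor T cells attack host tissue and make interferon gamma, which in many cell types raises MHC class I genes, the immunoproteasome and interferon-inducible GTPases.

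The libraries held 16755124 and 26677842 UMIs in the allogeneic group, against 18262459 and 14961466 UMIs in the syngeneic group, over 3257 to 6341 barcodes each. Kept cells numbered 2061 and 4881 in the allogeneic libraries, against 2875 and 2468 in the syngeneic ones. Library allogeneic 1 lost 27.2% of its barcodes to the mitochondrial limit, against 11.2% to 14.9% in the other 3 libraries. Libraries shared 2 to 7 barcodes per pair and no tuft cell barcode. In the summed tuft cells, the SD over genes of the log2 difference was 0.762 between the allogeneic libraries and 0.556 between the syngeneic ones, against 0.620 to 0.822 between libraries of different groups. Allogeneic 2 stood apart from the other 3 libraries in tuft cell depth. The median tuft cell held 5247 and 2162.5 UMIs in the allogeneic libraries, against 4070 and 4442 UMIs in the syngeneic libraries. Of the tuft cells, 1 of 32 and 14 of 28 held fewer than 2000 UMIs in the allogeneic libraries, against 10 of 53 and 7 of 33 in the syngeneic libraries.

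The cells carried the tuft cell genes broadly rather than through a single marker, although the levels of the 7 genes are fixed by the way the cells were chosen and are given as a description. Of the 146 cells, 144 held at least 2 of the 7 genes and 129 held at least 3. Rgs13, a regulator of G protein signalling, was found in 94.5% of the cells. Dclk1, a microtubule-linked kinase used as the classical tuft marker, was found in 82.2%, and Sh2d6, an adaptor protein gene, in 79.5%. Avil, which encodes the actin-binding protein advillin, was found in 74.0%, and the channel gene Trpm5 in 53.4%. Gfi1b, a transcriptional repressor, was found in 10 cells and the cytokine gene Il25 in 3 cells. The cells held 1957 and 2253 CPM in allogeneic against 2580 and 2340 CPM in syngeneic tuft cells summed over the 7 genes, where CPM are UMIs per 1000000 UMIs of the summed tuft cells of a library. Just inside the threshold, 11 cells held 4 UMIs of the 7 genes, and just outside it 18 cells without Cd3 held 3.

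Genes outside the selection rule fitted the label. The genes that stood highest over the other epithelial cells, again as a description, included Alox5ap and Ltc4s (leukotriene synthesis), Kctd12, Lrmp, Tuba1a (a tubulin), Fyb (a signalling protein otherwise known from blood cells), Gng13 (a taste G protein subunit), Adh1 (an alcohol dehydrogenase), Ptpn18 (a tyrosine phosphatase) and Tm4sf4. Other epithelial cells here are the 11370 kept cells with at least 2 UMIs of Epcam, Krt8, Krt18 and Krt19 and none of the 7 tuft genes, the Cd3 genes or Ptprc. Alox5ap stood at 435 and 481 CPM in allogeneic against 399 and 199.6 CPM in syngeneic tuft cells, and at 1.01 and 0.336 CPM in allogeneic against 0.377 and 0.691 CPM in syngeneic other epithelial cells. In the cells with a Cd3 UMI, Gng13 stood at 0 and 1.66 CPM in allogeneic against 0 and 0 CPM in syngeneic libraries.

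Markers of blood and stromal cells were near 0 in the tuft cells. Of 14 T and NK cell genes 13 had no UMI in any tuft cell, of which the 3 Cd3 genes were at 0 by the rule that chose the cells, and the list summed to 3.92 and 0 CPM in allogeneic against 2.96 and 0 CPM in syngeneic tuft cells. Of the mast cell and basophil list 10 of 11 genes had no UMI, including Cpa3 and Fcer1a, while Kit, a receptor kinase, stood at 141 and 68.7 CPM in allogeneic against 56.1 and 61.0 CPM in syngeneic tuft cells. The B cell list summed to 3.92 and 7.64 CPM in allogeneic against 5.91 and 11.1 CPM in syngeneic tuft cells, the myeloid list to 11.8 and 22.9 CPM in allogeneic against 23.6 and 44.4 CPM in syngeneic tuft cells and the stromal list to 3.92 and 7.64 CPM in allogeneic against 0 and 0 CPM in syngeneic tuft cells. Genes of other crypt lineages were present at much higher levels and were unevenly spread over the cells. UMIs of the Paneth list were found in 19 and 13 allogeneic against 42 and 22 syngeneic tuft cells. UMIs of the enterocyte list were found in 20 and 19 allogeneic against 41 and 19 syngeneic tuft cells. The Paneth list summed to 3228 and 13425 CPM in allogeneic against 48519 and 2285 CPM in syngeneic tuft cells, and the single richest cell of each library held 39.8% to 68.7% of it. In the 19 to 245 cells per library with a Cd3 UMI the same list summed to 2607 and 4449 CPM in allogeneic against 137636 and 11897 CPM in syngeneic libraries. The enterocyte list summed to 1875 and 4765 CPM in allogeneic against 1909 and 2734 CPM in syngeneic tuft cells, with 24.7% to 85.8% in the single richest cell. Counted at 10 or more UMIs per 1000 over the Paneth, goblet, enteroendocrine and enterocyte lists, 6 and 9 tuft cells in the allogeneic libraries and 14 and 6 in the syngeneic libraries were rich in such genes, 35 in all. Scrublet, a caller of doublets, marked 18 and 72 kept cells in the allogeneic against 14 and 19 in the syngeneic libraries, and no tuft cell.

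Tuft cells were a small share of the crypt cells in both groups, and the shares of the groups overlapped. They were 1.55% of kept cells in allogeneic 1 (95% exact binomial interval 1.06% to 2.18%) and 0.574% in allogeneic 2 (0.382% to 0.828%). The syngeneic shares were 1.84% (1.38% to 2.40%) and 1.34% (0.922% to 1.87%). Allogeneic 2 was lowest and did not overlap the others in its counting interval, while allogeneic 1 lay between the syngeneic libraries. The mean was 1.06% ± 0.69 in allogeneic and 1.59% ± 0.36 in syngeneic libraries (SD, n = 2 each). The comparison gave an exact two-sided permutation p of 0.667, where 2 against 2 libraries cannot go below 0.33. The difference of -0.53 percentage points was -1.02 without allogeneic 1, -0.038 without allogeneic 2, -0.27 without syngeneic 1 and -0.78 without syngeneic 2. Allogeneic 2 also had the shallowest tuft cells, and the part of depth in its low share was not tested beyond the thinned count. Cells with at least 2000 UMIs were thinned to 2000 with a minimum of 2 marker UMIs, and shallower cells were left out. The shares were then 1.15% and 0.268% in allogeneic libraries, against 1.31% and 0.910% in syngeneic libraries. This left out 1 of 32 and 14 of 28 tuft cells in the allogeneic libraries, against 10 of 53 and 7 of 33 in the syngeneic ones. The thinned share of allogeneic 2 is therefore not a share corrected for depth. Intervals here cover counting error only.

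**Figure D1:**
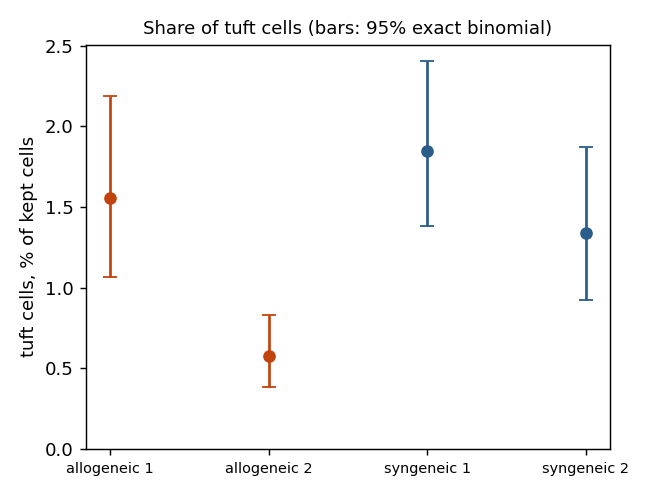
Tuft cells as a percentage of kept cells in each library, with 95% exact binomial intervals as bars. Allogeneic 2 stands lowest at 0.574%, and allogeneic 1 at 1.55% lies between the 2 syngeneic libraries.

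No gene of the tuft cell programme itself was called between the groups. Over the lists for taste-like transduction, receptors, mediators, transcription factors, blood-cell-type signalling proteins and structure, none of the 51 genes tested passed the test in either direction. Without allogeneic 1, 6 genes of these lists were called higher (Gng13, Matk, Rac2, Krt8, Krt18 and Ezr) and 1 lower (Sox4), and without allogeneic 2 Ezr alone was called. A p that misses the threshold does not show that the groups are alike. The edgeR quasi-likelihood test on the summed cells called 18 of 3402 genes at an adjusted p under 0.05 (0.529%), 16 higher (0.47%) and 2 lower (0.0588%) in allogeneic tuft cells, and 239 had an unadjusted p under 0.05. The median log2 fold changes were 0.09 for transduction, -0.14 for receptors, 0.24 for mediators, -0.08 for transcription factors, 0.12 for signalling and 0.27 for structure, beside 0.0054 over all genes tested. Both allogeneic libraries lay above both syngeneic ones for 2 of 7 transduction, 0 of 3 receptor and 3 of 6 mediator genes tested. The same held for 0 of 9 transcription factor, 5 of 12 signalling and 6 of 14 structure genes, beside 17.4% of all tested genes. Both lay below for 1, 0, 0, 1, 1 and 1 genes in the same order of lists, beside 18% of all tested genes. A log2 fold change is here the allogeneic over the syngeneic level, so a positive value is higher in allogeneic cells.

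Among the sensing genes, 7 of the 15 listed had enough UMIs to be tested. Gng13, which encodes a G protein gamma subunit, stood at 192 and 290.2 CPM in allogeneic tuft cells, against 139 and 144 CPM in syngeneic tuft cells (log2 fold change 0.74 ± 0.32 (SE), edgeR adjusted p = 0.613). Both allogeneic libraries lay above both syngeneic ones, as did 17.4% of all tested genes. Plcg2, a phospholipase, stood at 98.1 and 61.1 CPM in allogeneic against 82.7 and 83.2 CPM in syngeneic tuft cells. Plcb2, the phospholipase of the taste cascade, stood at 31.4 and 22.9 CPM in allogeneic against 47.3 and 61.0 CPM in syngeneic tuft cells, from only 8 and 3 UMIs in allogeneic against 16 and 11 UMIs in syngeneic tuft cells. Itpr2, a calcium release channel, stood at 122 and 53.5 CPM in allogeneic against 82.7 and 77.6 CPM in syngeneic tuft cells. Gnat3, the taste G protein gustducin, had 10 and 3 UMIs in allogeneic against 2 and 0 UMIs in syngeneic tuft cells, too few to be tested. That is a ratio per UMI of 8.74 (95% exact interval 1.98 to 79.7, counting error only), and 80.0% of its UMIs were in cells rich in genes of other lineages, described above. The taste receptor genes Tas1r1 and Tas1r3 had no UMI in any tuft cell, as had Rgs21 and Calhm2.

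Receptor genes were sparse. Sucnr1, the succinate receptor through which protists are sensed, had 10 and 12 UMIs in allogeneic against 3 and 2 UMIs in syngeneic tuft cells. That amounts to 39.2 and 91.6 CPM in allogeneic against 8.87 and 11.1 CPM in syngeneic tuft cells, so that both allogeneic libraries lay above both syngeneic ones, with too few UMIs to be tested. Without the 35 cells rich in other lineages, which held 59.3% of its UMIs, it stood at 5.62 and 66.6 CPM in allogeneic against 14.5 and 15.4 CPM in syngeneic tuft cells, and allogeneic 1 was lowest. Ffar3, a receptor for short-chain fatty acids, stood at 11.8 and 61.1 CPM in allogeneic against 53.2 and 38.8 CPM in syngeneic tuft cells (log2 fold change -0.67 ± 0.71 (SE), edgeR adjusted p = 0.967), with the allogeneic libraries at either end of the range. Il13ra1, a chain of the receptor for the type 2 cytokine Il13, stood at 235 and 129.8 CPM in allogeneic against 103 and 133 CPM in syngeneic tuft cells (log2 fold change 0.72 ± 0.35 (SE), edgeR adjusted p = 0.721). Il17rb, the receptor chain for the Il25 product, had 0 and 6 UMIs in allogeneic against 3 and 2 UMIs in syngeneic tuft cells, and all of its allogeneic UMIs were in allogeneic 2.

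No mediator gene passed, of 6 tested. Alox5ap, the activating protein of leukotriene synthesis, gave log2 fold change 0.58 ± 0.35 (SE), edgeR adjusted p = 0.809, with syngeneic 2 lowest of the 4 libraries. Ltc4s, the leukotriene C synthase, stood at 208 and 237 CPM in allogeneic tuft cells, against 233 and 233 CPM in syngeneic tuft cells (log2 fold change -0.07 ± 0.30 (SE), edgeR adjusted p = 0.997). Hpgds, a prostaglandin D synthase, stood at 188 and 99.3 CPM in allogeneic tuft cells, against 127 and 172 CPM in syngeneic tuft cells (log2 fold change 0.06 ± 0.35 (SE), edgeR adjusted p = 0.997). Within those 2 genes the groups overlapped. Pla2g4a, the phospholipase that frees arachidonic acid, stood at 177 and 99.3 CPM in allogeneic against 159.6 and 189 CPM in syngeneic tuft cells. Ptgs1, the constitutive cyclooxygenase, stood at 94.1 and 53.5 CPM in allogeneic against 35.5 and 27.7 CPM in syngeneic tuft cells and did not pass (log2 fold change 1.26 ± 0.49 (SE), edgeR adjusted p = 0.535). Chat, which makes acetylcholine, had 17 and 2 UMIs in allogeneic against 10 and 2 UMIs in syngeneic tuft cells. The allogeneic libraries were highest for Ptgs1 and differed from each other for Chat, where 17 of the 19 allogeneic UMIs were in allogeneic 1.

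Transcription factor genes included Pou2f3, without which tuft cells do not form in mice. It stood at 54.9 and 22.9 CPM in allogeneic tuft cells, against 70.9 and 83.2 CPM in syngeneic tuft cells (log2 fold change -0.80 ± 0.46 (SE), edgeR adjusted p = 0.809), and both allogeneic libraries lay below both syngeneic ones, as did 18% of all tested genes. The crypt factors Sox4 and Sox9 stood at 416 and 137 CPM in allogeneic against 319 and 394 CPM in syngeneic tuft cells and at 219.7 and 176 CPM in allogeneic against 260.1 and 205 CPM in syngeneic tuft cells. Sox4 was lowest in allogeneic 2. Ehf, an epithelial Ets factor, stood at 459 and 199 CPM in allogeneic against 334 and 327 CPM in syngeneic tuft cells, again lowest in allogeneic 2. Spib, an Ets factor shared with B cells and M cells, stood at 106 and 61.1 CPM in allogeneic against 85.7 and 55.5 CPM in syngeneic tuft cells.

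The signalling genes that tuft cells share with blood cells had no called member. Lrmp stood at 475 and 259.6 CPM in allogeneic tuft cells, against 366 and 344 CPM in syngeneic tuft cells (log2 fold change 0.08 ± 0.33 (SE), edgeR adjusted p = 0.997). Fyb, an adaptor, stood at 212 and 229 CPM in allogeneic against 289.6 and 360.5 CPM in syngeneic tuft cells. Skap2, an adaptor, stood at 212 and 214 CPM in allogeneic against 216 and 183 CPM in syngeneic tuft cells. Matk, a kinase that restrains Src-family kinases, stood at 149 and 351 CPM in allogeneic against 106 and 99.8 CPM in syngeneic tuft cells (log2 fold change 1.19 ± 0.39 (SE), edgeR adjusted p = 0.354), highest in allogeneic 2. Without the 35 cells rich in other lineages Matk stood at 95.6 and 239.7 CPM in allogeneic against 141 and 131 CPM in syngeneic tuft cells, with allogeneic 1 lowest, and its log2 fold change was 0.13. Ptprc, the leukocyte antigen CD45 and a mark of the type 2 subset, had 5 and 5 UMIs in allogeneic against 12 and 3 UMIs in syngeneic tuft cells. In structure genes the keratins Krt8 and Krt18 stood at 3570 and 4070 CPM in allogeneic against 2908 and 3056 CPM in syngeneic tuft cells and at 2048 and 3536 CPM in allogeneic against 1888 and 1852 CPM in syngeneic tuft cells, with Krt8 at log2 fold change 0.37 ± 0.21 (SE), edgeR adjusted p = 0.809. Without the 35 cells Krt18 stood at 1776 and 2703 CPM in allogeneic against 2410 and 2174 CPM in syngeneic tuft cells, and the groups overlapped. Cd24a, a surface glycoprotein of crypt secretory cells, and Anxa4, an annexin, gave log2 fold change 0.00 ± 0.23 (SE), edgeR adjusted p = 0.999 and log2 fold change 0.36 ± 0.28 (SE), edgeR adjusted p = 0.881. Ezr, which links membrane to actin, was the structure gene with the smallest p, at 219.7 and 229 CPM in allogeneic against 97.5 and 88.7 CPM in syngeneic tuft cells (log2 fold change 1.25 ± 0.32 (SE), edgeR adjusted p = 0.107).

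**Figure D2:**
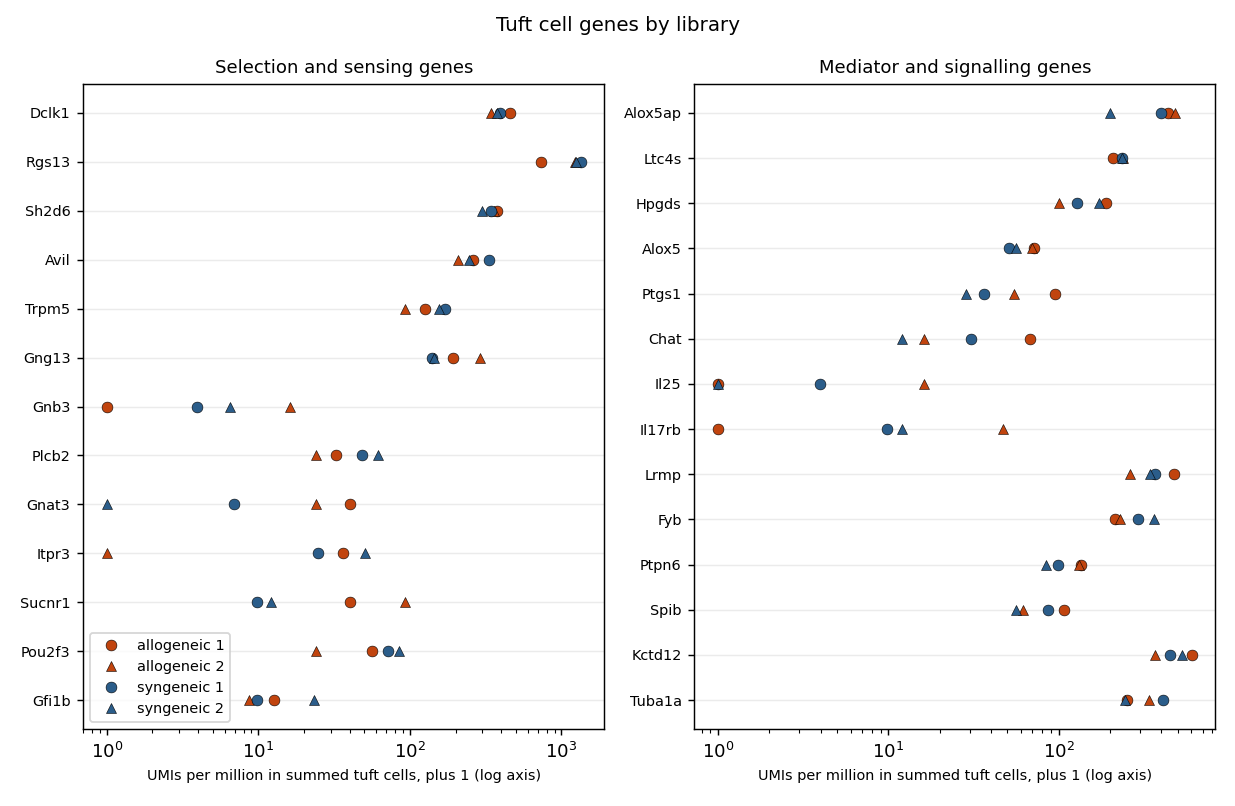
Levels of tuft cell genes in the summed tuft cells of each library, in CPM plus 1 on a log axis, for selection and sensing genes (left) and mediator and signalling genes (right). Circles are replicate 1 and triangles replicate 2, and for most genes the allogeneic and syngeneic points overlap or lie close, with Sucnr1 and Gnat3 higher in both allogeneic libraries at few UMIs, 59.3% and 80.0% of which were in cells rich in other lineages.

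Mouse tuft cells have been divided into a type 1 with neuronal genes and a type 2 with immune genes, and the groups overlapped in the balance of these. The log2 ratio of summed UMIs of 10 type 2 over 10 type 1 genes was 0.10 and 0.36 in the allogeneic libraries, against 0.25 and -0.26 in the syngeneic libraries. The groups overlapped, and the difference of 0.23 gave an exact two-sided permutation p of 0.667. Without syngeneic 2, whose ratio was the lowest, the difference was -0.02. Among type 2 genes, Rac2, a GTPase of blood cells, stood at 54.9 and 145 CPM in allogeneic against 44.3 and 33.3 CPM in syngeneic tuft cells, and without the 35 cells rich in other lineages at 33.7 and 93.2 CPM in allogeneic against 63.0 and 46.1 CPM in syngeneic tuft cells, with allogeneic 1 lowest. Siglecf, a lectin, had 6 and 10 UMIs in allogeneic against 10 and 3 UMIs in syngeneic tuft cells. Among type 1 genes, Nradd, a death-domain protein gene, stood at 27.5 and 15.3 CPM in allogeneic against 56.1 and 49.9 CPM in syngeneic tuft cells (log2 fold change -1.20 ± 0.65 (SE), edgeR adjusted p = 0.809).

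The groups differed in genes of antigen presentation by MHC class I. Of the 20 class I and peptide-loading genes listed, 18 were tested, and 7 rose and none fell in allogeneic tuft cells, beside 0.47% of all tested genes called higher. The median log2 fold change of the 18 was 1.44, and 13 of them lay higher in both allogeneic libraries than in both syngeneic ones, beside 17.4% of all genes. The filter on low counts kept some genes through the allogeneic group, H2-Q6, H2-Q7 and H2-T22 among them. Such genes could enter these counts only as higher. Summed, the list stood at 9061 and 11737 CPM in allogeneic against 4125 and 4370 CPM in syngeneic tuft cells. In other cells of the epithelium it stood at 10068 and 11247 CPM in allogeneic against 4766 and 4827 CPM in syngeneic other epithelial cells.

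The chains that carry the peptide rose together. B2m, the invariant light chain (chromosome 2, 122147686 to 122153083, mm10), stood at 1518 and 2176 CPM in allogeneic tuft cells, against 426 and 405 CPM in syngeneic tuft cells (log2 fold change 2.16 ± 0.29 (SE), edgeR adjusted p = 0.000989). H2-D1, a classical heavy chain (chromosome 17, 35262730 to 35267499), stood at 1663 and 2138 CPM in allogeneic tuft cells, against 573 and 516 CPM in syngeneic tuft cells (log2 fold change 1.81 ± 0.28 (SE), edgeR adjusted p = 0.00257). H2-K1, the other classical heavy chain of C57BL/6 mice (chromosome 17, 33996017 to 34000347), stood at 1804 and 2123 CPM in allogeneic tuft cells, against 624 and 765 CPM in syngeneic tuft cells (log2 fold change 1.52 ± 0.26 (SE), edgeR adjusted p = 0.00775). In all 3 genes both allogeneic libraries lay above both syngeneic ones, with the higher value in allogeneic 2. The non-classical chain genes H2-Q7 and H2-Q6 rose as well. H2-Q7 (chromosome 17, 35439155 to 35443773) stood at 228 and 275 CPM in allogeneic tuft cells, against 20.7 and 16.6 CPM in syngeneic tuft cells (log2 fold change 3.65 ± 0.42 (SE), edgeR adjusted p = 0.000288). It had the smallest p of the whole comparison, and was found in 24 and 18 allogeneic against 5 and 3 syngeneic tuft cells. Its neighbour H2-Q6 stood at 86.3 and 99.3 CPM in allogeneic against 8.87 and 0 CPM in syngeneic tuft cells (log2 fold change 3.87 ± 0.74 (SE), edgeR adjusted p = 0.0167), from 22 and 13 UMIs in allogeneic against 3 and 0 UMIs in syngeneic tuft cells, a ratio per UMI of 15.7 (95% exact interval 4.94 to 79.7, counting error only). The H2-Q, H2-D and H2-K genes are near-identical copies, so that reads can be split among them in counting, and their separate values are uncertain. H2-T22 and H2-T23 stood at 82.4 and 129.8 CPM in allogeneic against 20.7 and 0 CPM in syngeneic tuft cells and at 224 and 267 CPM in allogeneic against 106 and 77.6 CPM in syngeneic tuft cells, and did not pass (edgeR adjusted p = 0.0540 and 0.0747).

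Genes that supply peptides rose with the chains, namely Tap1, a subunit of the peptide transporter, and Psmb9, an immunoproteasome subunit. Tap1 stood at 231 and 153 CPM in allogeneic tuft cells, against 41.4 and 44.4 CPM in syngeneic tuft cells (log2 fold change 2.20 ± 0.38 (SE), edgeR adjusted p = 0.00775), and Psmb9 at 333 and 504 CPM in allogeneic tuft cells, against 151 and 128 CPM in syngeneic tuft cells (log2 fold change 1.56 ± 0.32 (SE), edgeR adjusted p = 0.0346). The 2 genes lie on opposite strands and overlap at their starts, Tap1 at chromosome 17, 34187553 to 34197225 and Psmb9 at chromosome 17, 34181987 to 34187764. Psmb8, another immunoproteasome subunit, stood at 675 and 1046 CPM in allogeneic against 390.1 and 410.4 CPM in syngeneic tuft cells and did not pass (log2 fold change 1.11 ± 0.32 (SE), edgeR adjusted p = 0.183). The proteasome activators Psme1 and Psme2 and the chaperone Calr gave edgeR adjusted p = 0.641, 0.813 and 0.847, with Calr at 373 and 305 CPM in allogeneic against 408 and 549 CPM in syngeneic tuft cells.

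These calls rested on 2 libraries a group. Without syngeneic 1, 4 of 17 class I genes tested were called, and without syngeneic 2, 4 of 18, while 13 of 17 were called without allogeneic 1 and 10 of 18 without allogeneic 2. With at least 6 marker UMIs in a cell, 3 of 17 were called. Leaving out Scrublet doublets removed no tuft cell, so that setting repeated the reported fit. B2m and H2-Q7 were called in each of the 14 settings run, the reported one included, with adjusted p up to 0.0391 and 0.0108 by edgeR or DESeq2.

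Interferon-inducible GTPases, which coat and break up vacuoles that hold microbes, were higher in part as well. Of 18 listed genes, 6 were tested, 3 rose and none fell, beside 0.47% of all genes called higher, and all 6 had both allogeneic libraries above both syngeneic ones, beside 17.4% of all genes, with a median log2 fold change of 2.52. The filter on low counts kept a gene partly through the group where it was high, so these counts do not speak for the 18. Gbp2, a guanylate-binding protein (chromosome 3, 142620602 to 142638008), stood at 149 and 122 CPM in allogeneic tuft cells, against 2.96 and 5.55 CPM in syngeneic tuft cells, from 38 and 16 UMIs in allogeneic against 1 and 1 UMIs in syngeneic tuft cells (log2 fold change 4.97 ± 0.61 (SE), edgeR adjusted p = 0.000456). As the syngeneic cells held 2 UMIs in all, its ratio was 36.3 (95% exact interval 9.57 to 307, counting error only). Iigp1, an immunity-related GTPase, stood at 212 and 221 CPM in allogeneic tuft cells, against 35.5 and 11.1 CPM in syngeneic tuft cells (log2 fold change 3.01 ± 0.43 (SE), edgeR adjusted p = 0.00140). Igtp, another of that family (chromosome 11, 58199556 to 58207591), stood at 126 and 259.6 CPM in allogeneic tuft cells, against 32.5 and 16.6 CPM in syngeneic tuft cells (log2 fold change 2.76 ± 0.48 (SE), edgeR adjusted p = 0.00845). Gbp2 was found in 10 and 6 allogeneic against 1 and 1 syngeneic tuft cells, and Igtp in 15 and 15 allogeneic against 8 and 3 syngeneic tuft cells. Gbp2 and Iigp1 were called in each of the 14 settings. In the cells with a Cd3 UMI, Gbp2 stood at 35.6 and 53 CPM in allogeneic against 13.1 and 0 CPM in syngeneic libraries.

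Irgm1 and Ifi47, of the same family, stood at 118 and 137 CPM in allogeneic against 38.4 and 16.6 CPM in syngeneic tuft cells and at 196 and 137 CPM in allogeneic against 50.2 and 61.0 CPM in syngeneic tuft cells, just short of the threshold (edgeR adjusted p = 0.0540 and 0.0550). Gbp7 stood at 58.8 and 61.1 CPM in allogeneic against 5.91 and 22.2 CPM in syngeneic tuft cells (log2 fold change 2.29 ± 0.80 (SE), edgeR adjusted p = 0.421). Gbp3, Gbp4, Gbp5 and Gbp6 were found in allogeneic tuft cells alone, with 10, 7, 5 and 5 UMIs in the group against 0, too few to be tested. Set against a floor of 3 counts over the syngeneic group, the ratios per UMI are 4.48, 3.14, 2.24 and 2.24. These leave out the counting error of the allogeneic UMIs and are not lower bounds. Guanylate-binding protein genes also are close copies of each other, and their separate counts are uncertain.

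**Figure D3:**
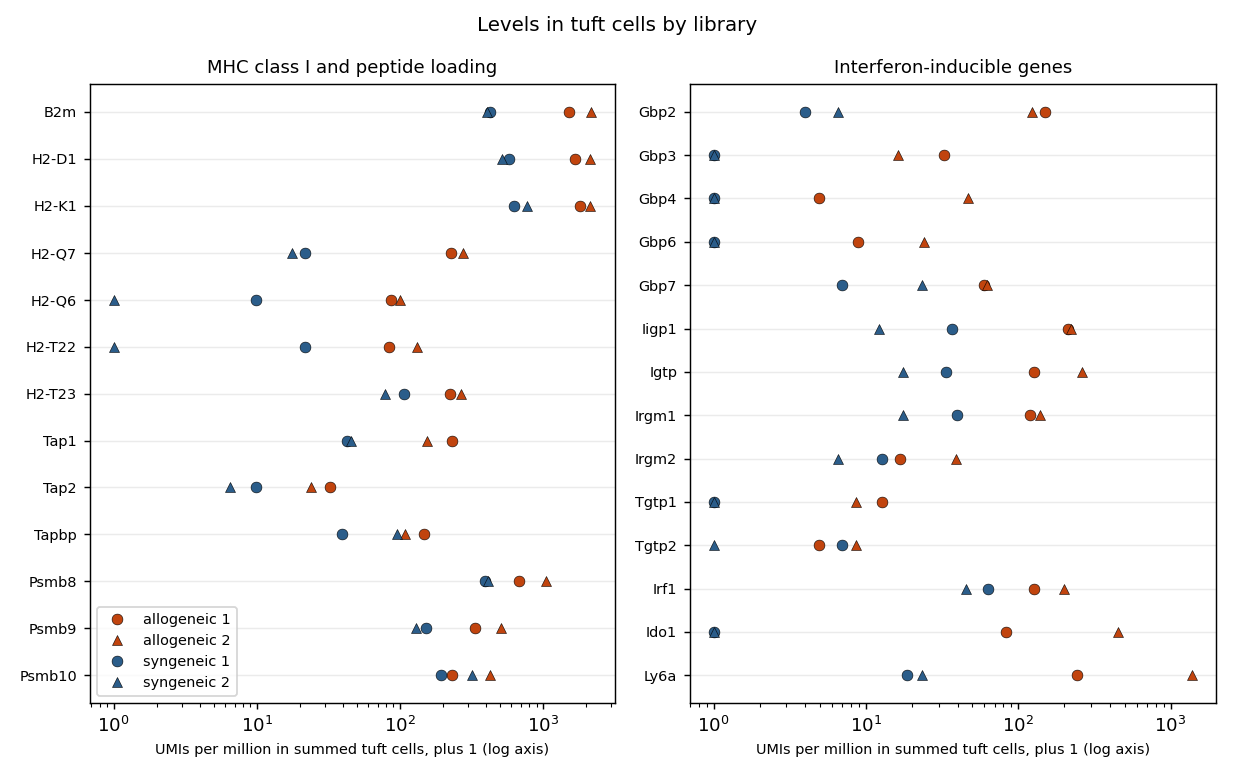
Levels of class I and peptide-loading genes (left) and of interferon-inducible genes (right) in the summed tuft cells of each library, in CPM plus 1 on a log axis, with 0 drawn at 1. For B2m, H2-K1, H2-D1, H2-Q7, Gbp2, Iigp1 and Igtp the 2 allogeneic points (orange) lie to the right of the 2 syngeneic points (blue).

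The promoters of 3 genes that rose are shown because they hold the letters of the interferon-stimulated response element (ISRE), a sequence bound by interferon regulatory factors. They are the 250 bases before the RefSeq start of B2m (chr2:122147437-122147686), Gbp2 (chr3:142620413-142620662) and Igtp (chr11:58199306-58199555), all on the plus strand of GRCm38.p6. Capitals mark GAAA, any 2 bases and GAAA again, searched on both strands, and in Igtp also TTCNNNGAA, the gamma-activated site (GAS). The ISRE letters lie 139 to 130 bases before the start of B2m, 59 to 50 bases before that of Gbp2 on the opposite strand, and 34 to 25 bases before that of Igtp, where the GAS letters lie 45 to 37 bases before it. The GENCODE span of Gbp2 given above begins before its RefSeq start, and the marked letters of Gbp2 lie inside that span.
B2m: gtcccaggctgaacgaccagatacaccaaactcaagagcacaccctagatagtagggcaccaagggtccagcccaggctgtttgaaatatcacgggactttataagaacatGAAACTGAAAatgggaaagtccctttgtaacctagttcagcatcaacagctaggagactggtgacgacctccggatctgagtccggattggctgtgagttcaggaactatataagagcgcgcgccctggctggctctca
Gbp2: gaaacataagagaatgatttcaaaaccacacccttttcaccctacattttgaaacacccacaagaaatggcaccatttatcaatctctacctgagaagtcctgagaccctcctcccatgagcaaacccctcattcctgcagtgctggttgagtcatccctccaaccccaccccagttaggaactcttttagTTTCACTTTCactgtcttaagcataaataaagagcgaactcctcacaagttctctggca
Igtp: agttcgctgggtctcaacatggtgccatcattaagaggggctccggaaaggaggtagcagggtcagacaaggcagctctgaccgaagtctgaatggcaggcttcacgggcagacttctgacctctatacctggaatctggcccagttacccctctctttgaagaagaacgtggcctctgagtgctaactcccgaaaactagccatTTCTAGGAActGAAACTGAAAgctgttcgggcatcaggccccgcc
Of the 16 genes that rose, 15 had a RefSeq promoter and 4 of these (26.7%) held the ISRE letters, the fourth being Coro2a, against 936 of 27025 genes with a promoter (3.46%). The GAS letters were in 1 of 15 (6.67%), against 8.13% of all. In the GTPase list, 10 of the 11 genes with a promoter held the ISRE letters and 6 the GAS letters, whatever their values in tuft cells. No tuft selection gene held the ISRE letters, and of the class I list 3 of 18 did, B2m, H2-T22 and H2-T23. A match of letters is a description, not a site shown to be bound.

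At the level of single cells the class I difference was broad. After thinning to 2000 UMIs, which 31 and 14 allogeneic and 43 and 26 syngeneic tuft cells allowed, the median cell held 16 and 21.5 UMIs of the class I list in the allogeneic libraries, against 8 and 7 UMIs in the syngeneic libraries. The lowest cell held 8 and 11 UMIs in the allogeneic libraries, against 2 and 1 in the syngeneic libraries, and the highest 31 and 38, against 17 and 16. Of the 45 allogeneic cells, 43 lay above the syngeneic median of 8 UMIs. The cells of the groups overlapped, but few allogeneic cells lay in the lower part of the syngeneic range. Other epithelial cells thinned alike had medians of 21 and 23 UMIs in allogeneic, against 9 and 10 in syngeneic libraries.

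GTPase UMIs were sparser per cell. The median was 1 UMI in both allogeneic libraries, against 0 in both syngeneic ones. Of the thinned tuft cells, 9 of 31 and 4 of 14 had none in the allogeneic libraries, against 36 of 43 and 24 of 26 in the syngeneic libraries. The share with at least 1 was 71.0% and 71.4% in allogeneic against 16.3% and 7.69% in syngeneic tuft cells, and 67.2% and 82.2% in allogeneic against 35.6% and 26.8% in syngeneic other epithelial cells. These values are from 1 random thinning. Another random thinning of the same tuft cells gave 54.8% and 71.4% in allogeneic against 23.3% and 15.4% in syngeneic libraries. At most 11 UMIs were found in a cell, in allogeneic 2. These are cells of 4 pooled libraries and not replicates, so no test was run over them.

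**Figure D4:**
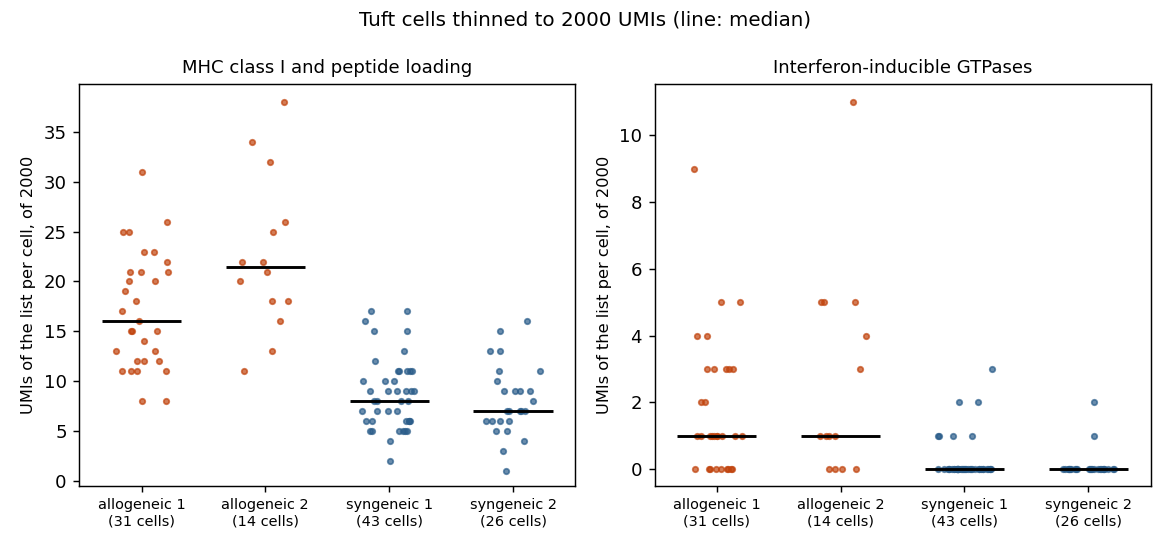
UMIs of the class I list (left) and the GTPase list (right) in each tuft cell thinned to 2000 UMIs, by library, with the median as a line. Class I medians are 16 and 21.5 UMIs in the allogeneic libraries, against 8 and 7 in the syngeneic ones.

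Other interferon-linked lists had positive medians and no calls. The filter on low counts kept a gene partly through the group where it was high, so these medians and counts do not speak for the full lists. Of 9 signalling genes tested none passed, with a median of 0.83. Irf1, a transcription factor that interferon gamma induces, stood at 126 and 199 CPM in allogeneic against 62.1 and 44.4 CPM in syngeneic tuft cells (log2 fold change 1.5 ± 0.40 (SE), edgeR adjusted p = 0.141), with both allogeneic libraries above both syngeneic ones. The receptor chains Ifngr1 and Ifngr2 stood at 109.8 and 53.5 CPM in allogeneic against 56.1 and 33.3 CPM in syngeneic tuft cells and at 35.3 and 61.1 CPM in allogeneic against 50.2 and 55.5 CPM in syngeneic tuft cells. Irf8, a factor otherwise known from myeloid cells, stood at 200.1 and 214 CPM in allogeneic against 139 and 83.2 CPM in syngeneic tuft cells. Among antiviral genes 0 of 11 passed, with a median of 1.16 and 9 of 11 higher in both allogeneic libraries, beside 17.4% of all genes. Bst2, which tethers virus particles, stood at 118 and 168 CPM in allogeneic against 41.4 and 33.3 CPM in syngeneic tuft cells (log2 fold change 1.84 ± 0.42 (SE), edgeR adjusted p = 0.0597). Ifitm3, which blocks virus entry, stood at 859 and 1008 CPM in allogeneic against 765 and 732 CPM in syngeneic tuft cells (log2 fold change 0.33 ± 0.29 (SE), edgeR adjusted p = 0.910).

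MHC class II genes, which present antigen to CD4 T cells, were found in tuft cells of both groups. None of 7 tested passed, all 7 had a positive log2 fold change with a median of 0.83, and 6 lay higher in both allogeneic libraries, beside 17.4% of all genes. Cd74, the invariant chain, stood at 3087 and 3994 CPM in allogeneic tuft cells, against 1918 and 1658 CPM in syngeneic tuft cells (log2 fold change 0.99 ± 0.23 (SE), edgeR adjusted p = 0.0660). H2-Aa, H2-Ab1 and H2-Eb1 stood at 839 and 764 CPM in allogeneic against 437 and 327 CPM in syngeneic tuft cells, at 819.8 and 733 CPM in allogeneic against 482 and 460.3 CPM in syngeneic tuft cells and at 812 and 657 CPM in allogeneic against 417 and 266 CPM in syngeneic tuft cells. Cd74 stood at 5025 and 5640 CPM in allogeneic against 2626 and 2526 CPM in syngeneic other epithelial cells. With 10% as the mitochondrial limit Cd74 passed (edgeR adjusted p = 0.0448), as it did with no filter on low counts and without either allogeneic library. It did not pass without syngeneic 1 (0.887), without syngeneic 2 (0.999), with at least 6 marker UMIs (0.467), without the 35 cells rich in other lineages (0.237) or with DESeq2 (0.277).

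None of 8 effector genes of the interferon gamma response tested passed, with a median of 0.69, and several had most of their UMIs in allogeneic 2. Here too the filter on low counts kept a gene partly through the group where it was high. Ido1, which breaks down tryptophan, had 21 and 59 UMIs in allogeneic against 0 and 0 UMIs in syngeneic tuft cells (edgeR adjusted p = 0.861). Its ratio per UMI was 35.8 against a floor of 3 counts over the syngeneic group, with the counting error of the allogeneic UMIs left out. Ubd, a ubiquitin-like modifier, had 13 and 35 UMIs in allogeneic against 1 and 1 UMIs in syngeneic tuft cells, and Cxcl9 and Cxcl10, chemokines for T cells, had 11 and 19 UMIs in allogeneic against 1 and 0 UMIs in syngeneic tuft cells and 3 and 24 UMIs in allogeneic against 0 and 0 UMIs in syngeneic tuft cells. Allogeneic 2 held more of each than allogeneic 1. Wars and Lgals9, both interferon-inducible, stood at 184 and 160.4 CPM in allogeneic against 85.7 and 94.3 CPM in syngeneic tuft cells and at 859 and 657 CPM in allogeneic against 469.9 and 527 CPM in syngeneic tuft cells. The ratio per UMI was 40.3 (95% exact interval 6.70 to 1645, counting error only) for Cxcl9, and 32.3 (95% exact interval 8.46 to 274, counting error only) for Ubd. In other epithelial cells Ido1 was likewise uneven, at 238 and 653 CPM in allogeneic against 6.85 and 6.76 CPM in syngeneic other epithelial cells.

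Ly6a, the gene of the regenerative and interferon-induced surface protein Sca-1, stood at 243 and 1375 CPM in allogeneic tuft cells, against 17.7 and 22.2 CPM in syngeneic tuft cells (log2 fold change 5.31 ± 1.42 (SE), edgeR adjusted p = 0.641). The allogeneic libraries lay far above the syngeneic ones and far apart from each other. It was called when any 1 of the 4 libraries was left out, without the 35 cells rich in genes of other lineages (edgeR adjusted p = 0.0334) and with DESeq2 (0.00555). In other epithelial cells it stood at 668 and 1921 CPM in allogeneic against 34.1 and 45.6 CPM in syngeneic other epithelial cells, and the difference of the effect between the classes did not pass (edgeR adjusted p = 0.997). Of the 5 regenerative genes tested none passed, with a median of 0.88, and S100a6 and Anxa2 stood at 247 and 863 CPM in allogeneic against 151 and 144 CPM in syngeneic tuft cells and at 341 and 664 CPM in allogeneic against 358 and 294 CPM in syngeneic tuft cells. Both were highest in allogeneic 2. Ly6e stood at 157 and 237 CPM in allogeneic against 94.6 and 116 CPM in syngeneic tuft cells, and Krt7, a keratin, at 149 and 153 CPM in allogeneic against 171 and 249.6 CPM in syngeneic tuft cells.

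The 2 genes that fell were Olfm4, a secreted protein gene that marks crypt-base stem cells, and Kcne3, a potassium channel subunit of crypt cells. For neither was the difference of the effect between tuft and other epithelial cells called, so the fall was not shown to be particular to tuft cells. Olfm4, at chromosome 14, 79984081 to 80023139, stood at 624 and 443 CPM in allogeneic tuft cells, against 2075 and 1703 CPM in syngeneic tuft cells (log2 fold change -1.81 ± 0.29 (SE), edgeR adjusted p = 0.00332). Both allogeneic libraries lay below both syngeneic ones. It was found in 11 and 6 allogeneic against 22 and 15 syngeneic tuft cells, and stood at 473 and 91.1 CPM in allogeneic against 723 and 758 CPM in syngeneic libraries in the cells with a Cd3 UMI, and up to 34.5% of its tuft UMIs in a library were in 1 cell. Without syngeneic 1 the call was lost (edgeR adjusted p = 0.163). Kcne3 stood at 23.5 and 30.5 CPM in allogeneic tuft cells, against 148 and 139 CPM in syngeneic tuft cells, from 6 and 4 UMIs in allogeneic against 50 and 25 UMIs in syngeneic tuft cells (log2 fold change -2.44 ± 0.45 (SE), edgeR adjusted p = 0.0132), and its call was lost without syngeneic 1 (0.105), without the 35 cells (0.0922) and with DESeq2 (0.147). Of the other stem genes, Slc12a2, a chloride cotransporter, stood at 577 and 199 CPM in allogeneic against 532 and 460.3 CPM in syngeneic tuft cells, and Smoc2 and Cdca7 at 90.2 and 38.2 CPM in allogeneic against 94.6 and 111 CPM in syngeneic tuft cells and at 78.5 and 45.8 CPM in allogeneic against 100.5 and 139 CPM in syngeneic tuft cells. Lgr5, the stem cell receptor, had 10 and 3 UMIs in allogeneic against 21 and 6 UMIs in syngeneic tuft cells. Of the 5 stem genes tested, 1 fell, beside 0.0588% of all genes, all had negative log2 fold changes and the median was -0.52.

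A further 6 genes rose, outside the class I and GTPase lists. Clec2h, a lectin gene of enterocytes, stood at 188 and 237 CPM in allogeneic tuft cells, against 29.6 and 22.2 CPM in syngeneic tuft cells (log2 fold change 2.94 ± 0.40 (SE), edgeR adjusted p = 0.000989). St3gal4, a sialyltransferase, stood at 137 and 229 CPM in allogeneic tuft cells, against 29.6 and 61.0 CPM in syngeneic tuft cells (log2 fold change 2.07 ± 0.43 (SE), edgeR adjusted p = 0.0341). Coro2a, a coronin that binds actin, stood at 122 and 91.6 CPM in allogeneic against 23.6 and 27.7 CPM in syngeneic tuft cells (log2 fold change 2.1 ± 0.45 (SE), edgeR adjusted p = 0.0408). Rbp2, the retinol carrier of enterocytes, stood at 118 and 237 CPM in allogeneic against 32.5 and 33.3 CPM in syngeneic tuft cells (log2 fold change 2.34 ± 0.45 (SE), edgeR adjusted p = 0.0186), and Anpep, a brush-border peptidase, at 90.2 and 153 CPM in allogeneic against 26.6 and 5.55 CPM in syngeneic tuft cells (log2 fold change 2.56 ± 0.54 (SE), edgeR adjusted p = 0.0376). The remaining gene has a systematic name alone and is counted, not described. Rbp2 was found in 3 and 6 allogeneic against 2 and 1 syngeneic tuft cells and Anpep in 3 and 6 allogeneic against 1 and 1 syngeneic tuft cells, with 35.0% to 100% of a library's UMIs of each in 1 cell. The 35 tuft cells rich in genes of other lineages held 62.8% of the Rbp2, 88.7% of the Anpep and 37.6% of the Clec2h UMIs. They held 15.5% of the Iigp1, 17.9% of the Gbp2 and 35.5% of the B2m UMIs, beside 27.8% to 42.7% of all tuft UMIs of a library. Rbp2 and Anpep are in the enterocyte list used to choose these cells, so their high shares follow in part from that choice. Without these cells Clec2h was still called (edgeR adjusted p = 0.0108), Rbp2 (0.0532), St3gal4 (0.0920) and Coro2a (0.342) were not, and Anpep was no longer tested.

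Of the calls that stayed without the 35 cells, 4 were class I genes and 2 GTPases. Of the 18 genes, 17 could still be tested, all 17 kept their sign and 8 were called, which were H2-Q7, Clec2h, B2m, H2-D1, Olfm4, Gbp2, H2-K1 and Iigp1. The 35 cells were chosen without the stem list, so the part of stem cell RNA in the Olfm4 call was not tested. Without these cells B2m stood at 1478 and 2224 CPM in allogeneic against 446 and 392 CPM in syngeneic tuft cells.

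Among the lists of other lineages, of 10 enterocyte genes tested 2 rose, the Rbp2 and Anpep just given, beside 0.47% of all genes, with a median of 1.71. Without the 35 cells 6 of the list were tested and none was called. The 35 cells were chosen in part by UMIs of this list, so a loss of its UMIs and calls follows in part from that choice. Fabp1, a fatty acid carrier, stood at 333 and 1352 CPM in allogeneic against 23.6 and 11.1 CPM in syngeneic tuft cells (log2 fold change 5.42 ± 1.03 (SE), edgeR adjusted p = 0.298), while its relative Fabp2 stood at 482 and 1123 CPM in allogeneic against 1265 and 1508 CPM in syngeneic tuft cells. Without the 35 cells, which held 90.4% of its UMIs, Fabp1 stood at 67.4 and 79.9 CPM in allogeneic against 29.1 and 15.4 CPM in syngeneic tuft cells, a log2 fold change of 1.59, and Fabp2 at 89.9 and 346 CPM in allogeneic against 223 and 154 CPM in syngeneic tuft cells. Apoa1, an apolipoprotein, stood at 502 and 1199 CPM in allogeneic against 384 and 843 CPM in syngeneic tuft cells. None of 9 Paneth genes passed, with a median of -1.19. Defa24 stood at 1612 and 9744 CPM in allogeneic against 19176 and 1226 CPM in syngeneic tuft cells and Lyz1, lysozyme, at 279 and 229 CPM in allogeneic against 5680 and 294 CPM in syngeneic tuft cells, high in syngeneic 1, and the defensin genes are near-identical copies whose separate counts are uncertain. None of 8 goblet genes passed, with a median of -0.85, and Muc2, the main mucin, stood at 309.9 and 183 CPM in allogeneic against 677 and 449 CPM in syngeneic tuft cells (log2 fold change -1.17 ± 0.35 (SE), edgeR adjusted p = 0.210). Spink4 and Agr2 of the goblet list stood at 1663 and 4475 CPM in allogeneic against 3529 and 1974 CPM in syngeneic tuft cells and at 592 and 725 CPM in allogeneic against 1138 and 1481 CPM in syngeneic tuft cells. The enteroendocrine list summed to 228 and 336 CPM in allogeneic against 526 and 116 CPM in syngeneic tuft cells. The part of RNA from these lineages in the tuft cell results was not tested beyond leaving out the 35 cells.

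Genes of the circuit by which tuft cells drive type 2 immunity were sparse. Il25 had 0 and 2 UMIs in allogeneic against 1 and 0 UMIs in syngeneic tuft cells, and Tslp, an epithelial cytokine, had 2 and 1 UMIs in allogeneic against 2 and 0 UMIs in syngeneic tuft cells. Retnlb, a goblet product that type 2 cytokines raise, had 0 and 80 UMIs in allogeneic against 9 and 2 UMIs in syngeneic tuft cells, with 75 of the 80 UMIs of allogeneic 2 in 1 cell. Pigr, the antibody transporter, stood at 1032 and 229 CPM in allogeneic against 733 and 876 CPM in syngeneic tuft cells, and of 2 genes tested in the list none passed.

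Whether tuft cells differed from the rest of the epithelium in their allogeneic effect was asked with an interaction, with the library as a block. It was called for 12 of 3402 genes (0.353%), 10 with a higher effect in tuft cells and 2 with a lower one. No gene of the class I, GTPase, antiviral, class II or tuft lists was among the 12, while Sis and Anpep of the enterocyte list were. H2-Q7 was higher in both allogeneic libraries in other epithelial cells as well, at 240.0 and 146 CPM in allogeneic against 20.7 and 19.7 CPM in syngeneic other epithelial cells, and the effects differed by 0.47 ± 0.51 (SE; edgeR adjusted p = 0.927). B2m stood at 1984 and 2362 CPM in allogeneic against 596 and 623 CPM in syngeneic other epithelial cells, and the difference was 0.37 ± 0.17 (SE; edgeR adjusted p = 0.643). For Iigp1 it was -0.24 ± 0.44 (SE; edgeR adjusted p = 0.967) and for Gbp2 1.28 ± 0.92 (SE; edgeR adjusted p = 0.844). The B2m level was lower in tuft cells than in other epithelial cells of the same library in all 4 libraries.

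Spink1, a protease inhibitor, stood at 141 and 191 CPM in allogeneic against 59.1 and 72.1 CPM in syngeneic tuft cells, and at 459.6 and 450.0 CPM in allogeneic against 683 and 909.5 CPM in syngeneic other epithelial cells, a difference in log2 effect of 2.16 ± 0.26 (SE; edgeR adjusted p = 3.58e-05). St3gal4 stood at 206 and 369.8 CPM in allogeneic against 323 and 303 CPM in syngeneic other epithelial cells beside the tuft values above, a difference of 2.36 ± 0.34 (SE; edgeR adjusted p = 0.000438). Clec2h stood at 652 and 1086 CPM in allogeneic against 417 and 407 CPM in syngeneic other epithelial cells, a difference of 2.03 ± 0.31 (SE; edgeR adjusted p = 0.000784). All 3 stood higher in both allogeneic than in both syngeneic tuft cell sums, which for Spink1 did not hold without the 35 cells rich in other lineages, when it stood at 50.6 and 13.3 CPM in allogeneic against 24.2 and 46.1 CPM in syngeneic tuft cells. All 3 lay lower in tuft cells than in the other epithelial cells of the same library. Upp1, uridine phosphorylase, had a difference of 1.89 ± 0.30 (SE; edgeR adjusted p = 0.00137), Krt20, a keratin of mature cells, of 1.42 ± 0.26 (SE; edgeR adjusted p = 0.00669), and Sis, sucrase-isomaltase, of 3.39 ± 0.63 (SE; edgeR adjusted p = 0.00669). Phgr1 had 0.90 ± 0.20 (SE; edgeR adjusted p = 0.0423), Lgals3, a galectin, 1.10 ± 0.24 (SE; edgeR adjusted p = 0.0423) and Anpep 1.94 ± 0.43 (SE; edgeR adjusted p = 0.0423). Mif, a cytokine gene, stood at 463 and 626 CPM in allogeneic against 491 and 599 CPM in syngeneic tuft cells and at 686 and 774 CPM in allogeneic against 396 and 407 CPM in syngeneic other epithelial cells, a difference of -0.80 ± 0.18 (SE; edgeR adjusted p = 0.0423). The other 2 of the 12 have systematic names alone. The calls moved with single libraries: 0 were made without syngeneic 1 and 4 without syngeneic 2, none of the 4 among the 12. With a mitochondrial limit of 10%, 1 call was made, which was not among the 12. Of these genes' tuft UMIs, 77.7% for Spink1, 88.7% for Anpep, 42.9% for Sis and 49.2% for Krt20 were in the 35 cells. Sis and Anpep are in the enterocyte list used to choose these cells, so their shares follow in part from that choice. Without these cells Spink1, Sis and Anpep could not be tested, and the other 9 of the 12 were called. Among the further calls of that setting were Ifitm3 of the antiviral list, with a difference of -0.70 (edgeR adjusted p = 0.0267), and S100a6 of the regenerative list, with 1.79 (edgeR adjusted p = 0.000361).

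**Figure D5:**
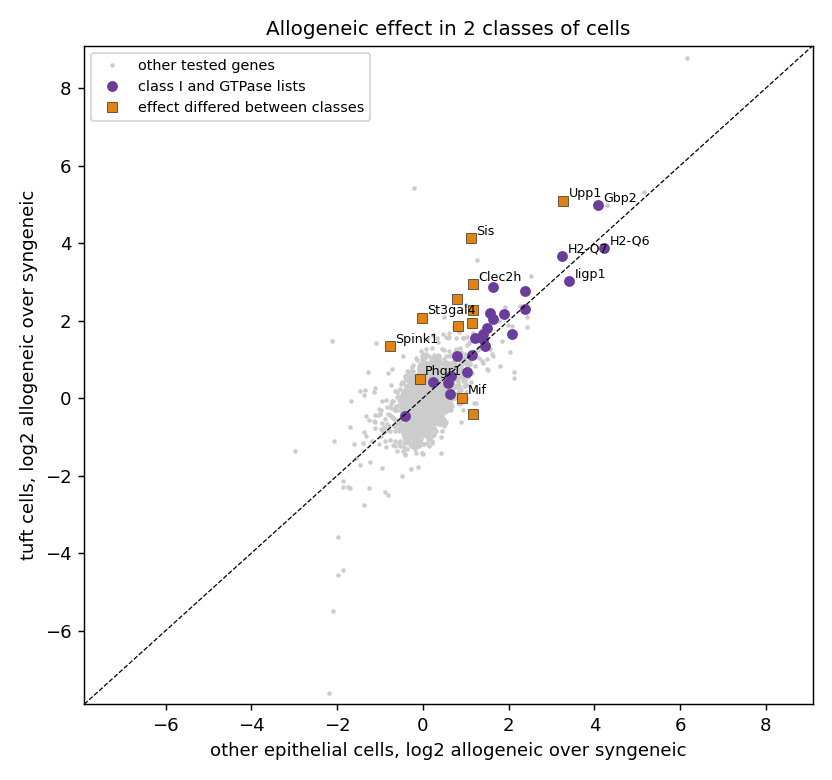
Log2 allogeneic over syngeneic effect of each tested gene in tuft cells (vertical) against other epithelial cells (horizontal), each from its own fit, with equal effects on the dashed line. No class I or GTPase gene (purple) is among the 12 genes whose effect differed (orange), which include Spink1, Sis and St3gal4 above it and Mif below it.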

How the data were processed

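The authors deposited raw UMI counts per gene and cell barcode for 4 droplet libraries. The submitters' processing notes name Cell Ranger 2.1.1 and mm10, while the headers of the deposited count matrices give software version 3.1.0, and the rule for calling cells is not given in the sources used here. Barcodes were kept as stated with the results, and no doublets were removed, although Scrublet (scanpy 1.11.5, score threshold 0.25) was run. Counts were summed over the tuft cells, and over the other epithelial cells, of each library, since cells are not replicates. The libraries are pools of mice, and no label pairs them across groups. Sums were tested with edgeR 4.0.16 in R 4.3.3 (filterByExpr, TMM scaling, robust quasi-likelihood fit), with Benjamini-Hochberg adjustment over all genes tested and a threshold of 0.05. The filter could keep a gene through a single group, so medians and counts over the tested genes of a list do not speak for the whole list. For the difference between cell classes the model held a term for each library and the interaction of class with transplant. DESeq2 1.42.0 was an alternative. The procedure was tested on simulated data. For values per cell, cells were thinned to 2000 UMIs, leaving out shallower ones and using at most 500 other epithelial cells a library. Thinning was at random, and its values vary with the draw. Binomial intervals are exact at 95%, and floors are 3 counts. Gene positions are from GENCODE on mm10, and promoters from RefSeq.

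The members, gene lists and tests were chosen with earlier results of these data known. Named genes were the called genes with the smallest p, up to 15 per direction, called list members, the 7 selection genes, the 4 highest members of each list, the 10 interaction genes with the smallest p and the 15 defining genes. Other genes of the lists were named after their values were seen. Alternatives changed the marker minimum, mitochondrial limit, doublets, cells rich in other lineages, scaling, filter, tool and libraries. Dense text copies of the matrices were not used. A few genes of the lists are not reported here.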

Additional observations from a re-analysis of the deposited data

Results flagged for a closer look

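For 12 genes the allogeneic effect differed between tuft cells and the other epithelial cells of the same libraries, by the edgeR interaction test. The values are tuft minus other epithelial log2 effects, and a positive value is a larger allogeneic over syngeneic effect in tuft cells. The difference was 2.16 ± 0.26 (SE; edgeR adjusted p = 3.58e-05) for Spink1, 2.36 ± 0.34 (SE; edgeR adjusted p = 0.000438) for St3gal4 and 2.03 ± 0.31 (SE; edgeR adjusted p = 0.000784) for Clec2h. It was 1.89 ± 0.30 (SE; edgeR adjusted p = 0.00137) for Upp1, 1.42 ± 0.26 (SE; edgeR adjusted p = 0.00669) for Krt20 and 3.39 ± 0.63 (SE; edgeR adjusted p = 0.00669) for Sis. It was 1.10 ± 0.24 (SE; edgeR adjusted p = 0.0423) for Lgals3, 0.90 ± 0.20 (SE; edgeR adjusted p = 0.0423) for Phgr1 and 1.94 ± 0.43 (SE; edgeR adjusted p = 0.0423) for Anpep. Mif, with -0.80 ± 0.18 (SE; edgeR adjusted p = 0.0423), had the smaller effect in tuft cells. The genes with systematic names were 2200002D01Rik, with 1.29 ± 0.21 (SE; edgeR adjusted p = 0.00160), and Gm26917, a long noncoding RNA, with -1.71 ± 0.34 (SE; edgeR adjusted p = 0.0176). No call among the 12 was made without syngeneic 1, without syngeneic 2 or with a mitochondrial limit of 10%. Without the 35 tuft cells rich in genes of other lineages, Spink1, Sis and Anpep could not be tested, and Spink1 stood at 50.6 and 13.3 CPM in allogeneic against 24.2 and 46.1 CPM in syngeneic tuft cells. Sis and Anpep are in the enterocyte list used to choose those cells.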

How the results depend on the processing

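The count of genes called in tuft cells was 18. It was 7 with at least 6 marker UMIs, 10 without the cells rich in other lineages and 65 with no filter on low counts. It ranged between 21 and 278 when 1 library was left out, where the lone library of a group is assumed to vary like the other group. With DESeq2 it was 15, of which 10 were among the 18. Leaving out Scrublet doublets removed no tuft cell and repeated the reported tuft fit, and that setting is counted in the values that follow. Over the called genes, 177 values kept their sign and side of the threshold, 55 kept their sign and lost the call, and none reversed. Over the named genes without a call, 125 values gained a call with the same sign, 158 changed sign without a call and 2091 kept both. The interaction count was 12. It was 4 with at least 6 marker UMIs, 1 with a mitochondrial limit of 10% and 24 without the cells rich in other lineages, and ranged between 0 and 42 when 1 library was left out. The allogeneic minus syngeneic difference in the balance of type 2 over type 1 genes was 0.23. It ranged between -0.024 (without syngeneic replicate 2) and 0.49 when 1 library was left out, and was 0.024 with a mitochondrial limit of 10% and 0.66 as a mean over genes of log2(CPM + 10). The difference in tuft cell share was -0.53 percentage points, negative in each setting run, and ranged between -1.02 and -0.038 when 1 library was left out. The cause of these shifts was not tested. No paired analysis was possible because the labels give no number or batch that pairs libraries across groups. The depth of 130954 to 338386 tuft UMIs in a library limits the precision of low genes.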

Other observations

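Cycling genes were present in tuft cells of both groups. After thinning to 2000 UMIs, 14 of 31 and 7 of 14 allogeneic tuft cells held at least 2 UMIs of the cycling list, against 22 of 43 and 12 of 26 syngeneic tuft cells (51.2% and 46.2%). In other epithelial cells the shares were 47.2% and 36.8% in allogeneic against 41.2% and 39.4% in syngeneic libraries. None of the 9 cycling genes tested passed, with a median log2 fold change of -0.21. Top2a, a topoisomerase of dividing cells, stood at 216 and 259.6 CPM in allogeneic against 293 and 272 CPM in syngeneic tuft cells (log2 fold change -0.26 ± 0.30 (SE), edgeR adjusted p = 0.982), and Mki67, a proliferation marker, at 177 and 122 CPM in allogeneic against 168 and 94.3 CPM in syngeneic tuft cells. Whether free RNA gives part of these UMIs was not tested.

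No damage or stress gene tested was called between the groups in tuft cells 7 days after irradiation, which both groups received. None of 4 p53 target genes tested passed, with a median of -0.03. Cdkn1a, an inhibitor of the cell cycle, stood at 114 and 115 CPM in allogeneic against 97.5 and 111 CPM in syngeneic tuft cells (log2 fold change 0.15 ± 0.35 (SE), edgeR adjusted p = 0.990), and Bax, a promoter of cell death, at 58.8 and 244 CPM in allogeneic against 157 and 149.7 CPM in syngeneic tuft cells. None of 9 early response genes passed, with a median of 0.72. Jun, a transcription factor of that response, stood at 302 and 298 CPM in allogeneic against 142 and 244 CPM in syngeneic tuft cells (log2 fold change 0.69 ± 0.32 (SE), edgeR adjusted p = 0.667), and Hspa8, a chaperone, at 875 and 1084 CPM in allogeneic against 1150 and 1292 CPM in syngeneic tuft cells. These genes also respond to dissociation of tissue, which was not tested.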
